A study of Eucalyptus globulus and Eucalyptus grandis with 36 samples.

Results

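The genes described are 10 clock and day-length genes of 2 eucalypts, chosen by identifier out of 11827 genes that the authors listed as changed in any comparison. They are a pseudo-response regulator 5 gene (PRR5), a cold regulated gene 27 (COR27), a gigantea gene (GI), a flavin-binding kelch repeat F-box 1 gene (FKF1), 2 genes for cycling DOF factor 2 (CDF2), 3 for cycling DOF factor 3 (CDF3) and 1 CONSTANS-like 2 gene (COL2). These names come from the descriptions in the files. The 10 were picked with values of these comparisons in view, so the counts and differences below describe them and are not tests. Of the 10, 9 had a value in E. globulus and 6 in E. grandis, against 11196 and 4189 of all listed genes.

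RNA came from stems of seedlings from clonal seed of Eucalyptus globulus and Eucalyptus grandis, both planted for pulpwood, which the growth protocol puts at 6 months of age and the treatment protocol at about 25 cm in height, while the design text calls the plants 35-day-old. Treatments lasted 35 days, in chambers lit for 10 h a day by blue and red diodes at 280 µmol photons per square metre per second. For each species, groups were at 10, 20 or 30 °C by their titles, with elevated CO2 (700 ppm) or ambient CO2. The protocols give chamber ranges of 10 to 12, 22 to 24 and 33 to 35 °C, and put ambient CO2 at 390 ppm where the design text has 400 ppm. Each of the 12 groups had 3 samples, and the control of a species was 20 °C in ambient CO2. The sources used here give neither the hour at which stems were taken nor whether a group's samples came from different plants. A shift in the time of a daily peak and a change in its height therefore cannot be told apart. Nor can treatment and chamber be told apart.

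In plants the circadian clock is a loop of genes that switch each other off at successive times of day. In Arabidopsis it reaches flowering through GI and FKF1, which join in blue light and mark cycling DOF factors for destruction. Those factors repress CONSTANS, the activator of the flowering signal, so that CONSTANS builds up only when light and the clock coincide. Parts of the same clock also set daily rhythms of growth and of cold tolerance.

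Each value below is the authors' normalised level of a gene in a whole group, on the log2 scale, where a difference of 1 is a 2-fold change. No value per sample, SD or p-value per gene was available, so no error stands beside a value, and it cannot be said which neighbouring levels differ beyond their spread. A gene is called higher or lower where the authors listed it (corrected p of at most 0.05 in their own test) and the 2 levels lie at least 2-fold apart. For temperature in ambient CO2 that test covered 3 groups together, so a pair is called on its fold alone. A gene that is not listed has no known value in that group. Levels are not per transcript length and are compared only within a gene. Some differences are also given relative to the median difference of the genes listed in the same contrast. Those genes were listed for changing, so that median is no estimate of scale, and a difference set against it is a description only. In RNA of a mixed tissue, fewer cells of a type and less RNA per cell cannot be told apart. Among listed genes with descriptions of secondary wall, phloem or green tissue genes, all 8, 22 and 16 had a value above 0 in some group, with lowest maxima of 5.03, 1.91 and 1.93. A listed gene has groups at least 2-fold apart and no value lies below 0, so a value above 0 was given by the listing. It does not show which tissues were present. Genes with the same description may share reads, and their sequences were not compared.

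**Figure D1:**
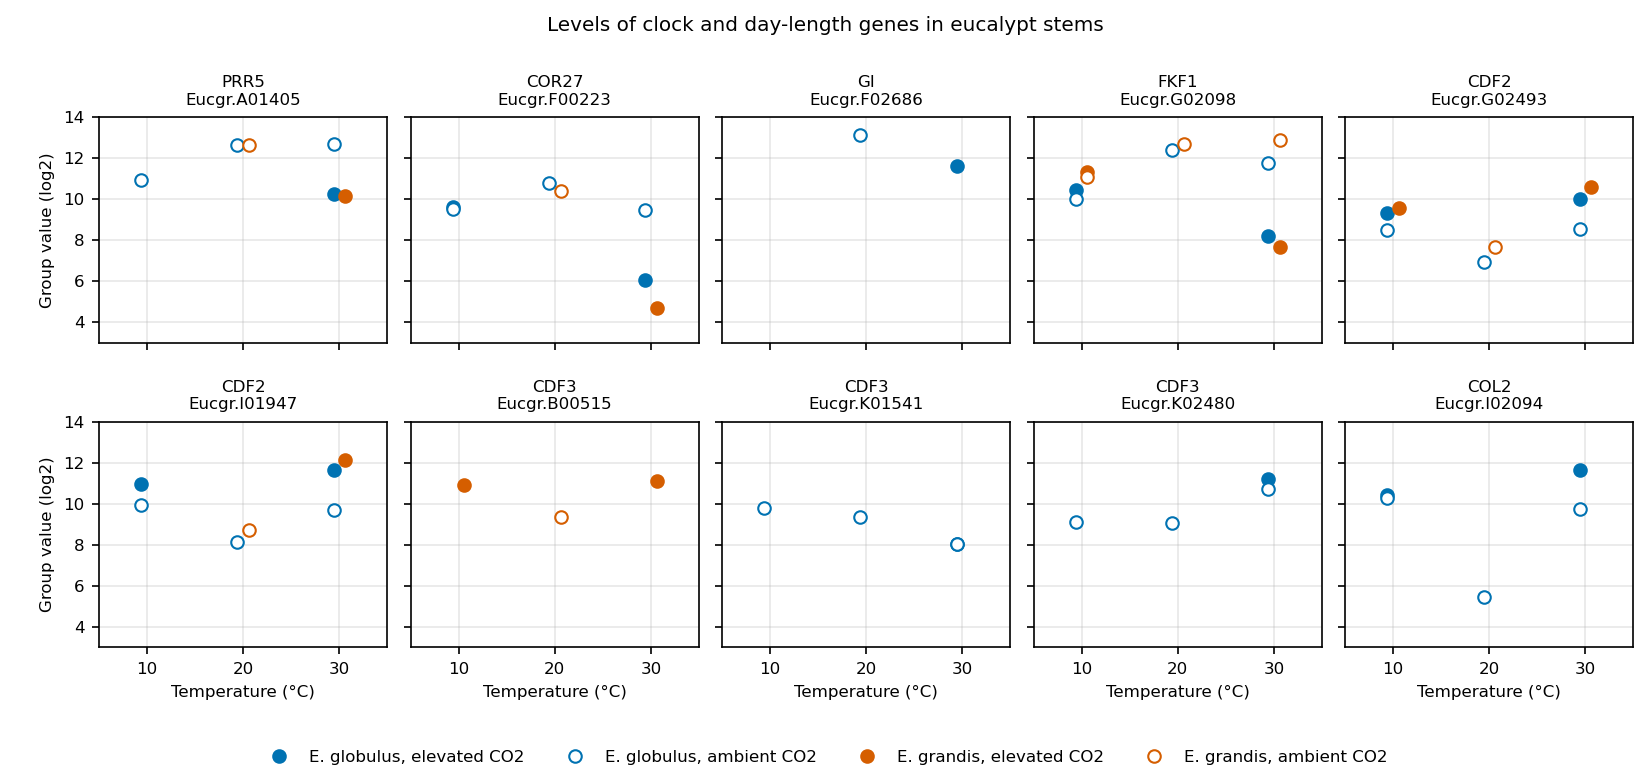
Authors' group values (log2, vertical axis) of the 10 genes at 10, 20 and 30 °C (horizontal axis), for E. globulus (blue) and E. grandis (orange), in elevated (filled) and ambient CO2 (open), with species set slightly apart. Each point is 1 group, with no error available. Among groups with a value, COL2 and both CDF2 genes were lowest in the control, and COR27 and FKF1 were far lower at 30 °C with elevated CO2. PRR5 was also lowest there, at 10.27 in E. globulus, against 10.93 at 10 °C in ambient CO2. The filled and open points of Eucgr.K01541 at 30 °C coincide.

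PRR5, COR27, GI and FKF1 were lower, and both CDF2 genes and COL2 higher, in E. globulus stems at 30 °C with elevated CO2 than in the control. At 30 °C with elevated CO2, 9 of the 10 genes were listed, 4 higher and 5 lower. Of all listed genes 46.0% were called there, 29.9% higher and 16.2% lower. The third CDF3 gene, Eucgr.B00515, was not listed. Sizes spanned 2.49-fold for the CDF3 gene Eucgr.K01541 to 72.6-fold for COL2, and the median fold of all called genes was 3.22. In E. grandis, 6 were listed in the same contrast, 3 higher and 3 lower, where 8.32% of all listed genes were called, 4.89% higher and 3.43% lower. These percentages take genes in any table as their base, since how many genes the authors tested is not known. The genes were chosen from these contrasts, so nothing is read from the counts. Every comparison with a control shares that control's samples.

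**Figure D2:**
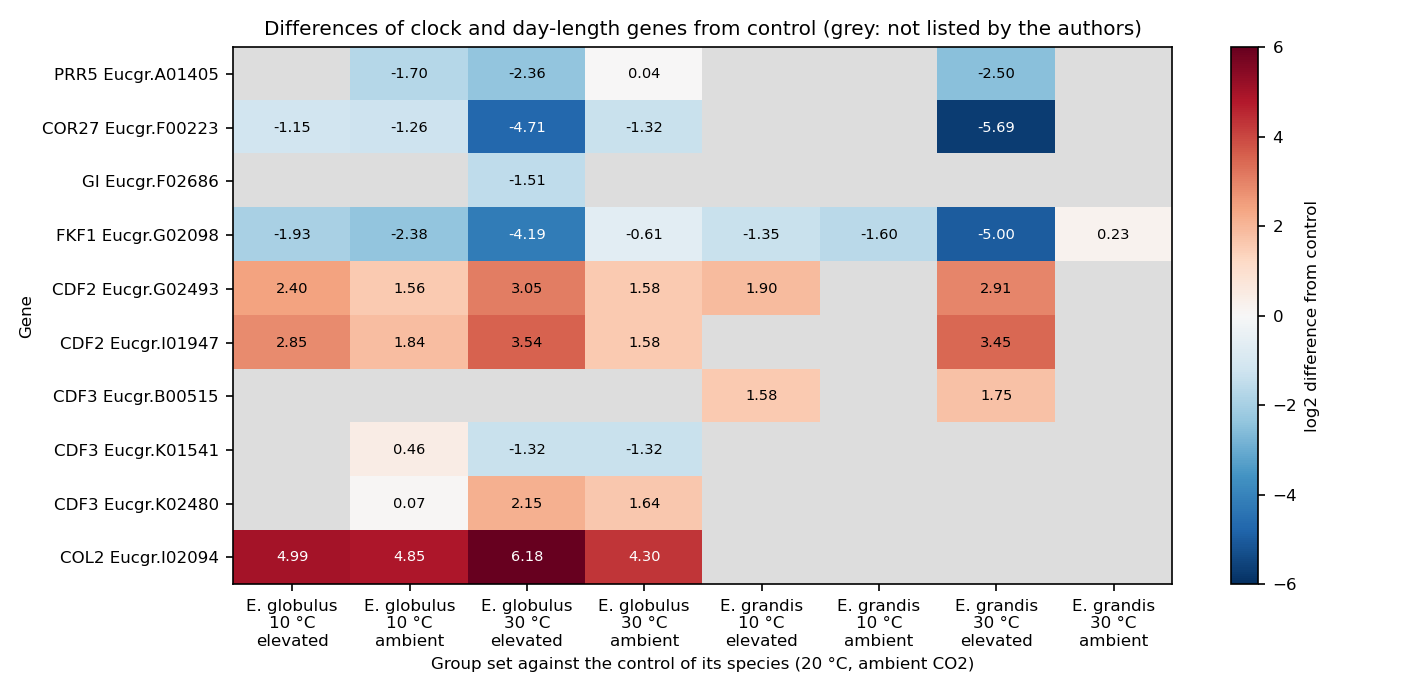
log2 difference of each gene (rows) from the control of its species, for 4 groups of E. globulus and 4 of E. grandis (columns). Red is higher than the control, blue lower, and grey means not listed. In E. globulus COR27 was lower and both CDF2 genes and COL2 higher in all 4 groups, from -4.71 for COR27 to 6.18 for COL2 at 30 °C with elevated CO2.

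PRR5 (Eucgr.A01405) in Arabidopsis is a repressor that acts late in the day on the dawn genes of the clock. In ambient CO2 its level in E. globulus was 10.93 at 10 °C, 12.63 at 20 °C and 12.67 at 30 °C. It was thus low in the cold, by -1.70 or 3.26-fold against the control, and within 0.04 of the control in warmth. At 30 °C with elevated CO2 it fell to 10.27, which is 5.14-fold below the control. In E. grandis it was 10.13 at 30 °C with elevated CO2, against 12.63 in the control, a fall of 5.67-fold. Control levels of PRR5 in E. globulus and E. grandis lay 0.0012 apart.

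COR27 (Eucgr.F00223) is known in Arabidopsis as a cold-induced evening gene that represses clock genes, PRR5 among them, and limits freezing tolerance. Among the groups with a value, 5 in E. globulus and 2 in E. grandis, its level was highest in the control of each species. At 10 °C it was 9.63 in elevated and 9.53 in ambient CO2 in E. globulus, against 10.78 in the control, so it was 2.23-fold and 2.39-fold lower. At 30 °C in ambient CO2 it was 9.46, lower than the control by 2.50-fold and only 0.07 from its level at 10 °C. At 30 °C with elevated CO2 it stood at 6.07, lower than the control by 26.2-fold. The E. grandis level was 4.69 at 30 °C with elevated CO2 and 10.38 in the control, 51.7-fold apart. By size of difference that value ranked 12 among the 984 called genes of its contrast.

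GI (Eucgr.F02686) encodes a large plant protein that steadies F-box partners such as FKF1. It was listed in 1 of the 8 tables. Its level in E. globulus was 11.62 at 30 °C with elevated CO2, against 13.13 in the control, a difference of -1.51 or 2.85-fold. No value was available for it in any other group.

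FKF1 (Eucgr.G02098), the blue-light receptor and F-box protein of the pair, was listed in 6 tables and in 10 groups, more than any other of the 10 genes. In ambient CO2 its E. globulus levels were 10.01, 12.39 and 11.78 at 10, 20 and 30 °C, and its E. grandis levels were 11.06, 12.66 and 12.89. At 10 °C FKF1 was thus lower than in the control in both species, by 5.19-fold in E. globulus and 3.03-fold in E. grandis, although relative to the median of all listed genes the E. grandis difference was -0.83, under 2-fold. At 30 °C in ambient CO2 it was within 2-fold of the control, at -0.61 in E. globulus and 0.23 in E. grandis. At 10 °C with elevated CO2 its levels were 10.47 in E. globulus and 11.31 in E. grandis, 3.80-fold and 2.55-fold below the controls. The E. grandis difference of -1.35 became 0.24 when set relative to the median of all listed genes, -1.60. All 1551 genes listed in that contrast were at least 2-fold apart and 1088 of them lower, so the 0.24 does not show that FKF1 was unchanged.

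At 30 °C with elevated CO2, FKF1 was lowest among the 5 groups with a value in each species. Its level was 8.20 in E. globulus and 7.67 in E. grandis, which is 18.3-fold below the E. globulus control and 31.9-fold below that of E. grandis. The E. grandis difference ranked 20 by size among the 984 called genes, and the E. globulus difference 242 among 5445. From its highest to its lowest group FKF1 spanned 37.4-fold in E. grandis and 18.3-fold in E. globulus.

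Cycling DOF factors are zinc-finger repressors of CONSTANS in Arabidopsis, most abundant in the morning and removed by GI and FKF1 later in the day. Of the 2 CDF2 genes, Eucgr.I01947 had E. globulus levels of 9.96, 8.12 and 9.70 at 10, 20 and 30 °C in ambient CO2. With elevated CO2 it had 10.97 at 10 °C and 11.66 at 30 °C. The control was lowest of the 5 groups with a value, and the differences from it ran from 2.98-fold at 30 °C in ambient CO2 to 11.6-fold at 30 °C with elevated CO2. In E. grandis Eucgr.I01947 was 12.15 at 30 °C with elevated CO2, against 8.70 in the control, 10.9-fold higher.

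The other CDF2 gene, Eucgr.G02493, had E. globulus levels of 8.50, 6.94 and 8.52 at 10, 20 and 30 °C in ambient CO2, and of 9.34 and 10.00 at 10 and 30 °C with elevated CO2. Cold and warmth in ambient CO2 thus gave levels 0.02 apart, 2.94-fold and 2.99-fold above the control. In E. grandis it was 9.56 at 10 °C and 10.57 at 30 °C with elevated CO2, both above the control's 7.66, by 3.73-fold and 7.51-fold. Over the 4 E. globulus differences from control, both CDF2 genes had a root mean square distance of 0.36 on the log2 scale.

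The CDF3 genes listed in E. globulus, Eucgr.K01541 and Eucgr.K02480, went opposite ways at 30 °C. Eucgr.K01541 had 9.82, 9.35 and 8.04 at 10, 20 and 30 °C in ambient CO2 and also 8.04 at 30 °C with elevated CO2 in E. globulus. It was therefore 2.49-fold below the control at 30 °C in either CO2 level, and 0.46 above it at 10 °C. Eucgr.K02480 went up where that gene went down, with 9.14, 9.07 and 10.71 at 10, 20 and 30 °C in ambient CO2 and 11.21 at 30 °C with elevated CO2. It was 3.12-fold higher at 30 °C in ambient CO2 and 4.43-fold higher with elevated CO2, the second falling to 0.81, under 2-fold, relative to the median of all listed genes. At 10 °C it lay 0.07 from the control.

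Eucgr.B00515, the CDF3 gene listed in E. grandis, had levels of 10.93 at 10 °C and 11.09 at 30 °C with elevated CO2, against 9.35 in the control. It was thus 2.99-fold and 3.35-fold higher, and relative to the median of all listed genes it stood at 3.18 at 10 °C and at 0.56, under 2-fold, at 30 °C. Both medians come from genes that were all at least 2-fold apart. Cold and warmth with elevated CO2 gave E. grandis levels of this gene 0.16 apart. The E. globulus values of Eucgr.B00515 and the E. grandis values of Eucgr.K01541 and Eucgr.K02480 were not available, so no CDF3 gene could be set side by side in both species.

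COL2 (Eucgr.I02094) encodes a B-box protein close to CONSTANS, whose RNA has a daily rhythm in Arabidopsis. It had the widest range of the 10 genes, 72.6-fold over the 5 E. globulus groups with a value. Levels lay between 9.75 and 11.63 in the 4 groups at 10 and 30 °C, against 5.45 in the control, and no value was available at 20 °C with elevated CO2. At 10 °C levels were 10.44 in elevated and 10.30 in ambient CO2, and at 30 °C they were 11.63 in elevated and 9.75 in ambient CO2. By size, its differences from the control ranked 46 among 3721 called genes for 10 °C in ambient CO2 and 34 among 5445 for 30 °C with elevated CO2. COL2 was not listed in any E. grandis table.

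Temperature in ambient CO2 gave 8 listed genes in E. globulus. At 10 °C, 3 were higher and 3 lower than the control, where 31.5% of all listed genes were called, 17.1% higher and 14.4% lower. Both listed CDF3 genes stayed under 2-fold there. At 30 °C, 4 were higher and 2 lower, where 37.4% were called, 22.7% higher and 14.8% lower, and PRR5 and FKF1 stayed under 2-fold. Setting 30 °C directly against 10 °C, PRR5 was 3.35-fold higher, FKF1 3.40-fold higher, Eucgr.K02480 2.97-fold higher and Eucgr.K01541 3.43-fold lower at 30 °C. In that contrast 3 of the 10 were higher and 1 lower, and 42.4% of all listed genes were called, 23.9% higher and 18.4% lower. COR27, both CDF2 genes and COL2 differed by under 2-fold between 30 and 10 °C, with -0.07 for COR27, 0.02 and -0.26 for the CDF2 genes and -0.55 for COL2.

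In E. grandis, FKF1 alone of the 10 was listed for temperature in ambient CO2. It was lower at 10 °C than in the control, where 3.20% of all listed genes were called, 1.20% higher and 2.00% lower. It was under 2-fold at 30 °C, where 1.34% were called, 0.854% higher and 0.490% lower. At 30 °C it was 3.55-fold higher than at 10 °C, where 3.98% were called, 2.53% higher and 1.45% lower, and relative to the median of all listed genes that difference was 0.73, under 2-fold.

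At 10 °C with elevated CO2, 5 genes were listed in E. globulus, 3 higher and 2 lower than the control, where 28.5% of all listed genes were called, 15.8% higher and 12.7% lower. The 3 higher ones were COL2 at 31.7-fold, Eucgr.I01947 at 7.21-fold and Eucgr.G02493 at 5.29-fold. In E. grandis, 3 were listed, with Eucgr.G02493 and Eucgr.B00515 higher and FKF1 lower, where 13.1% were called, 3.91% higher and 9.20% lower. At 20 °C, elevated CO2 gave 0 of the 10 genes in the authors' table of E. globulus, which lists 595 genes or 5.03% of all, 3.31% higher and 1.72% lower, chosen by their moderated t-test. That table gives no p per gene, so no count at an unadjusted p can be given. A table that sets E. globulus in elevated CO2 against the E. grandis control, both at 20 °C, also held 0 of the 10 among 2352 genes.

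At 4-fold, 7 of the 10 genes stood apart from the control in E. globulus at 30 °C with elevated CO2, where 17.2% of all listed genes did, and 5 in E. grandis, where 3.11% did. GI and the CDF3 gene Eucgr.K01541 were the listed E. globulus genes under 4-fold, and Eucgr.B00515 the E. grandis one. Of the E. globulus genes at 10 °C, 3 passed 4-fold with elevated CO2 (COL2 and both CDF2 genes, background 8.65%) and 2 in ambient CO2 (COL2 and FKF1, background 8.54%). COL2 alone passed it at 30 °C in ambient CO2, where 11.7% did. The count was 0 between 30 and 10 °C in ambient CO2 (background 12.8%) and at 20 °C with elevated CO2 (1.44%). It was also 0 in the other 4 comparisons of E. grandis, where 6.41% of all listed genes passed at 10 °C with elevated CO2, 1.25% at 10 °C and 0.364% at 30 °C in ambient CO2, and 1.59% between 30 and 10 °C.

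**Figure D3:**
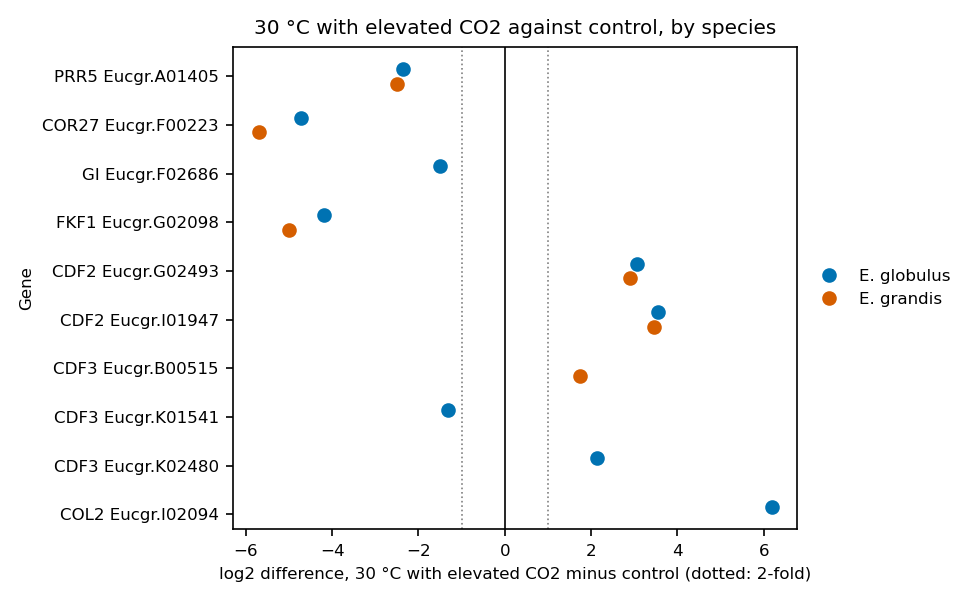
log2 difference between 30 °C with elevated CO2 and the control (horizontal axis) for each gene (rows) in E. globulus (blue) and E. grandis (orange). Dotted lines mark 2-fold, and a missing point means not listed. The 5 genes with points in both species lie on the same side of 0 in both, with COR27 at -4.71 in E. globulus and -5.69 in E. grandis.

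Values of 5 genes were held at 30 °C with elevated CO2 in both species, and each species was set against its own control. COR27 differed from control by -4.71 in E. globulus and -5.69 in E. grandis, and PRR5 by -2.36 and -2.50. FKF1 was 18.3-fold and 31.9-fold lower. The CDF2 genes differed by 3.54 and 3.45 (Eucgr.I01947) and by 3.05 and 2.91 (Eucgr.G02493). Whether the species differed in these effects was not tested.

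Direct levels of the species were held in separate tables and are described only, as E. globulus minus E. grandis. In the controls, 5 genes had both values and 0 differed by 2-fold, where 60.3% of 2453 genes with both values did. That base takes in genes listed as differing between E. globulus with elevated CO2 and the E. grandis control, at 20 °C. Since 0 of the 10 were listed there, the base was selected for species differences and the 5 genes were not. The 2 shares are therefore not to be compared. The widest of those 5 gaps was -0.72, for Eucgr.G02493. At 30 °C with elevated CO2, COR27 was 6.07 in E. globulus and 4.69 in E. grandis, 2.61-fold apart, and the other 4 genes were under 2-fold apart, where 34.8% of 425 genes reached 2-fold. At 10 °C with elevated CO2, FKF1 (-0.84) and Eucgr.G02493 (-0.22) were under 2-fold apart, where 38.2% of 461 genes reached 2-fold. FKF1 in ambient CO2 was lower in E. globulus at 10 °C by 2.07-fold, where 36.3% of 353 genes reached 2-fold, 14.2% higher and 22.1% lower. At 30 °C it was lower by 2.16-fold, where 32.0% of 353 did, 12.5% higher and 19.5% lower. Both species carry the same gene identifiers and the genome build is not stated. Whether reads of both species were assigned equally well is therefore unknown.

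CO2 at a fixed temperature also came from separate tables, with values of the same gene and group equal in every table, and is described without a test. At 10 °C in E. globulus, elevated minus ambient CO2 was 0.10 for COR27, 0.14 for COL2, 0.45 for FKF1, 0.85 for Eucgr.G02493 and 1.01 for Eucgr.I01947. Only the last reached 2-fold, where 9.43% of 2555 genes with both values did, 5.40% higher and 4.03% lower. At 30 °C the gap was wider for each of these genes. FKF1 was 12.0-fold lower in elevated than in ambient CO2, COR27 10.5-fold lower and PRR5 5.28-fold lower, while Eucgr.I01947 was 3.91-fold, COL2 3.68-fold and Eucgr.G02493 2.78-fold higher.

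Thus at 30 °C 6 of 8 genes with both values were at least 2-fold apart in E. globulus, 3 higher and 3 lower, where 25.3% of 3486 genes were, 16.7% higher and 8.61% lower. The CDF3 genes were not among them, with 0.51 for Eucgr.K02480 and 0.0012 for Eucgr.K01541. In E. grandis FKF1 was the only one of the 10 with values in both CO2 levels. Elevated CO2 gave it 0.25 more at 10 °C, where 31.3% of 259 genes were 2-fold apart. At 30 °C it was at 7.67 in elevated and 12.89 in ambient CO2, 37.4-fold apart, where 66.3% of 95 genes were 2-fold apart. At 10 and 30 °C, elevated-CO2 values were held only for genes at least 2-fold from their control in that group. A gene close to control in ambient CO2, as PRR5 was at 30 °C, was thus bound to differ between CO2 levels. The shares of all genes carry the same selection, so no effect of CO2 is read from these counts.

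**Figure D4:**
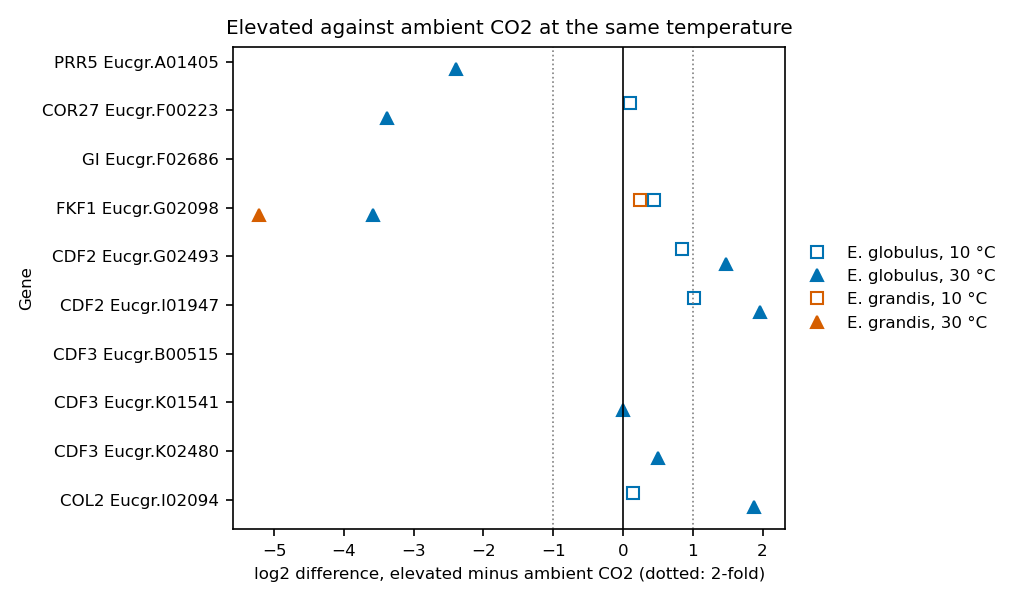
log2 difference between elevated and ambient CO2 (horizontal axis) at 10 °C (open squares) and 30 °C (filled triangles) for each gene (rows), in E. globulus (blue) and E. grandis (orange). Dotted lines mark 2-fold, and a missing point means that 1 of the values was not listed. At 10 °C all points lie between 0.10 and 1.01, and at 30 °C they reach -3.58 (E. globulus) and -5.22 (E. grandis) for FKF1.

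With elevated CO2 in both groups, 30 and 10 °C could also be compared across tables. COR27 was 11.8-fold lower at 30 °C in E. globulus, FKF1 was 4.81-fold lower and COL2 2.29-fold higher, while the CDF2 genes were 0.65 and 0.69 higher. In that contrast 41.1% of 1403 genes reached 2-fold. FKF1 thus stood lower at 30 than at 10 °C in elevated CO2 and higher at 30 than at 10 °C in ambient CO2. In E. grandis FKF1 showed -3.64 between 30 and 10 °C in elevated CO2 and 1.83 in ambient CO2. In elevated CO2 34.4% of the 241 genes with both values reached 2-fold. In ambient CO2 471 of the 547 genes listed in that contrast did, which is 3.98% of genes in any table. These shares have unlike bases and are not to be compared. Eucgr.G02493 was 2.02-fold higher at 30 °C in E. grandis with elevated CO2, and Eucgr.B00515 was 0.16 higher.

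Other genes of the clock and of light signalling were taken from patterns on the descriptions, which found 35 genes, the 10 above and 25 more. Of the 25, 10 belong by description to other families, 6 to cytokinin response regulators and 4 to phytochrome-associated proteins, which are auxin-response repressors. Counts are given first for the 15 genes without those families. At 10 °C in ambient CO2 9 of the 15 were listed in E. globulus, 2 higher and 3 lower, with a median difference of 0.17 against 0.08 over all listed genes. There 17.1% of all listed genes were called higher and 14.4% lower. At 30 °C in ambient CO2 9 were listed, 2 higher and 0 lower, where 22.7% of all listed genes were called higher and 14.8% lower. With elevated CO2, 3 were higher and 4 lower at 10 °C, where 15.8% and 12.7% of all listed genes were. At 30 °C 3 were higher and 3 lower, where 29.9% and 16.2% were. The medians were -1.12 and -0.02, against 1.12 and 1.34 over all listed genes. Every gene listed in these contrasts was at least 2-fold apart, so such a median mainly follows which direction held more genes. In E. grandis with elevated CO2, 2 were higher and 0 lower at 10 °C, where 13.1% of all listed genes were called, and 3 were higher and 1 lower at 30 °C, where 8.32% were. With the other families included, 14 of the 25 genes were listed in E. globulus at 10 °C in ambient CO2, 2 higher and 7 lower (median -0.66). With elevated CO2, 12 were listed there, 3 higher and 9 lower (median -1.31). The shares of all listed genes are those given above. At 30 °C with elevated CO2 the 25 genes gave 6 higher and 5 lower, and their median of 1.00 again follows the larger direction. In E. grandis they gave 2 each way at 10 °C, and 4 higher and 2 lower at 30 °C, both with elevated CO2.

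Cryptochrome 3 (Eucgr.C03997), of a blue-light receptor family, was higher than the control in all 4 E. globulus groups at 10 and 30 °C. Its level was 7.54 at 30 °C with elevated CO2, against 4.83 in the control, 6.51-fold apart, and 8.29 against 6.13 in E. grandis. A phytochrome interacting factor 3-like 1 gene (Eucgr.A00998), of a bHLH family that works with the red-light receptors, rose in the cold. It was 8.67 in elevated and 8.82 in ambient CO2 at 10 °C, against 5.87 in the control, and 6.29 at 30 °C in ambient CO2. The furthest below control among these genes was a phytochrome-associated protein 1 gene (Eucgr.C02984), 12.6-fold lower at 30 °C with elevated CO2. It was also the only one of the 35 genes listed in E. globulus for elevated CO2 at 20 °C, 2.05-fold lower. CONSTANS-like 9 (Eucgr.A01371), a relative of COL2, was 3.46-fold lower in E. globulus and 2.19-fold lower in E. grandis at 30 °C with elevated CO2, where COL2 was higher in E. globulus and not listed in E. grandis. A pseudo-response regulator 3 gene (Eucgr.J02111), of the PRR5 family, had values in 1 table only, 11.64 in E. globulus at 20 °C with elevated CO2 and 12.70 in the E. grandis control, where species and CO2 both differ. The dawn genes of the clock loop were not analysed here.

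**Figure D5:**
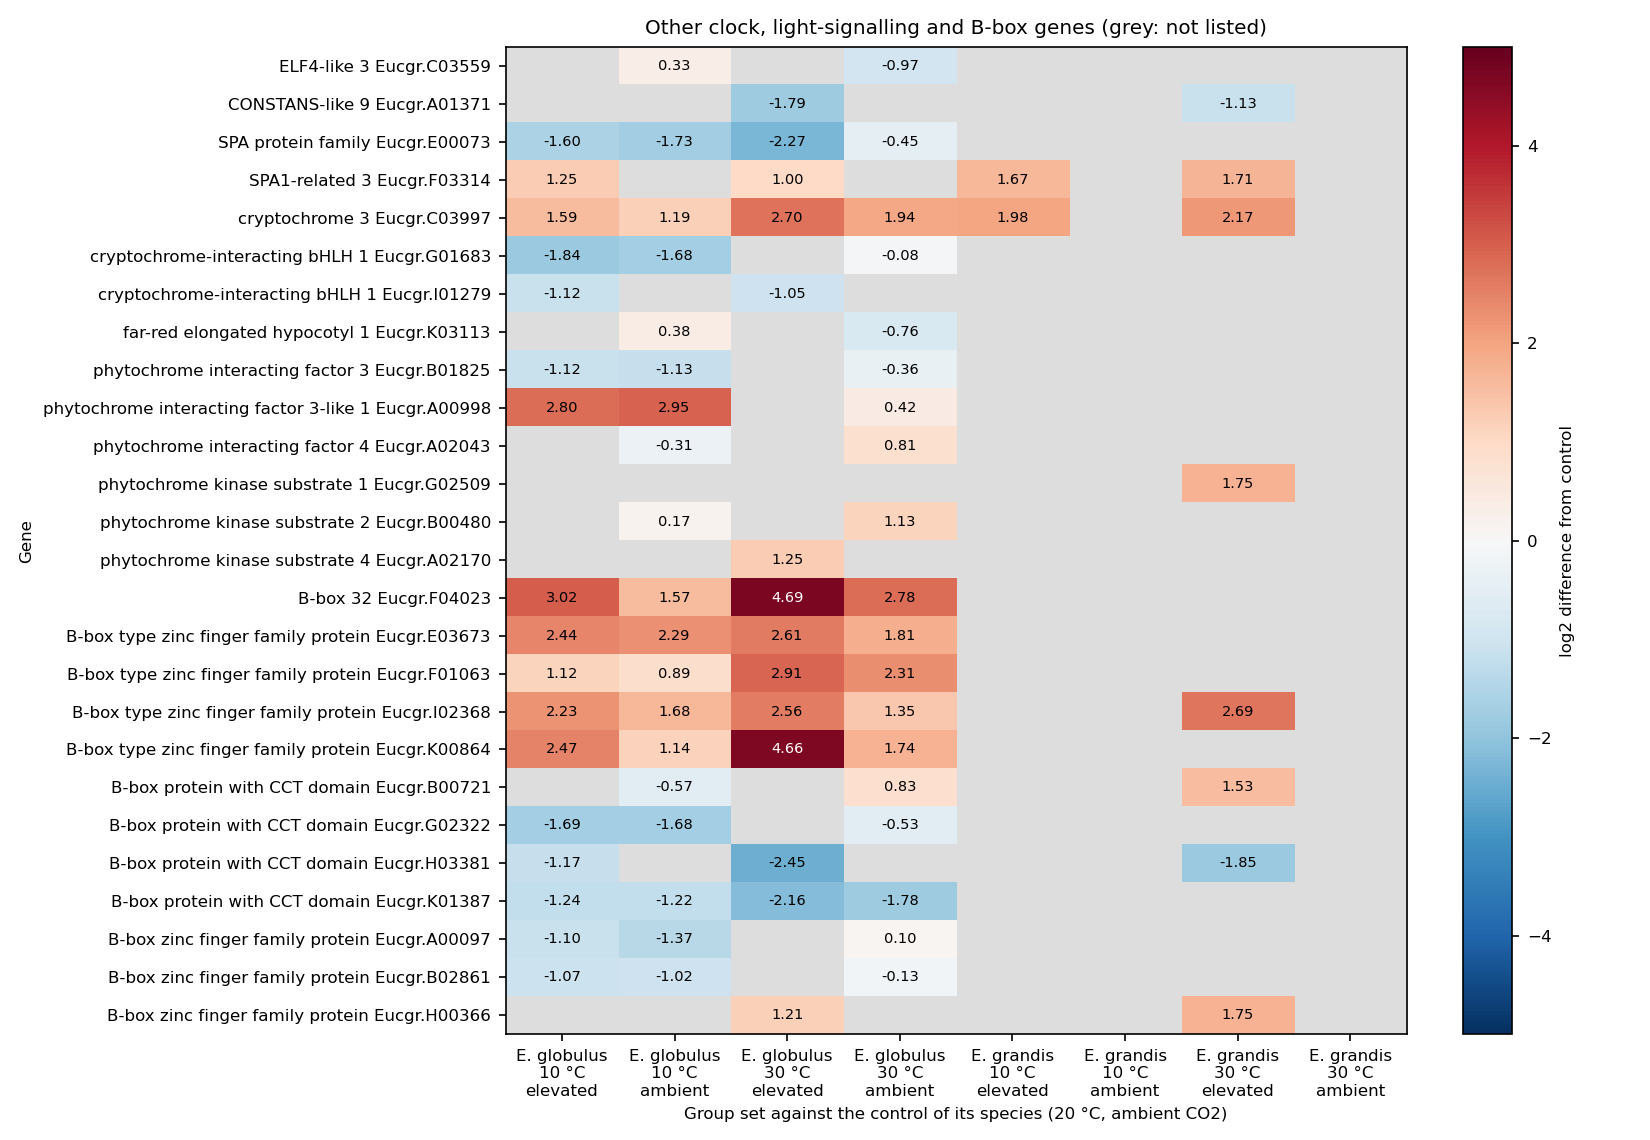
log2 difference from the control of the same species (colour and printed value) for other clock and light-signalling genes and for B-box genes (rows) in 4 groups per species (columns), with grey for genes not listed. Genes of the other families are left out, and the B-box genes were added after values had been seen. Cryptochrome 3 is higher in all 4 groups of E. globulus, up to 2.70, and 5 of the B-box genes are above control in all 4, up to 4.69.

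Genes whose differences from the control were nearest to those of a member were looked for over 966 genes with a description and values in all 5 E. globulus groups, as a description over 4 differences that share 1 control. Nearest to COR27 was a DNAJ heat shock gene (Eucgr.J02231), at a root mean square distance of 0.25. Nearest to FKF1 was a serine carboxypeptidase-like 40 gene (Eucgr.G03295), at 0.34. UDP-glycosyltransferase genes came first for both CDF2 genes, Eucgr.A02700 at 0.08 from Eucgr.G02493 and Eucgr.A00936 at 0.17 from Eucgr.I01947. By this distance COL2 had no near neighbour, and its closest was a 3-oxo-5-alpha-steroid 4-dehydrogenase family gene (Eucgr.G02661) at 0.91. By Pearson correlation of levels its closest was a calcineurin B subunit-related gene (Eucgr.E01329), at 0.998. That gene's own differences were smaller, from 1.11 to 1.46. Among the members with all 4 differences (COR27, FKF1, both CDF2 genes and COL2), FKF1 and COR27 were each other's nearest at 0.81. Of the other genes, 15 were nearer to COR27 and 14 nearer to FKF1. Both CDF2 genes and COL2 were higher than the control in all 4 groups, so only FKF1 and COR27 shared a direction below it.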

How the data were processed

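Titles put the 36 samples into 12 groups. The deposited values are log2 levels that the authors normalised, per the file headers, with a single value for a gene in a group and none below 0. The submitters' processing notes name Bowtie2 and DESeq, without roles or versions. The genome build and how reads were counted are not stated in the labels or headers. The 8 deposited tables list genes at a corrected p of at most 0.05 (moderated t-test in the 6 tables of 2 groups, one-way ANOVA in the 2 of 3 groups) and a fold ratio of at least 2.0 in some pair, per the file headers. Depth per sample is unknown.

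Differences and folds were computed from the deposited group values with Python 3.11.15 and pandas 2.3.3. Values of a gene and group held by several tables were equal (8144 of 8144, tolerance 0.0001), and the authors' folds equalled 2 to the power of their log2 fold changes in 38299 of 38299 cases (relative tolerance 0.001). In tables of 3 groups a pair counts as changed at 2-fold, since no p per pair is given. Positions are not printed: the files number them along sequences that join several chromosomes, without a build. Group values for E. grandis at 20 °C in elevated CO2 were not analysed here, nor were promoters and proteins.

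The members and lists were chosen with earlier results of these data known. All 10 members are named. From the wider list, the highest and lowest changed genes per comparison without a group at 0 were eligible, and for members with at least 4 differences the 2 nearest genes; the text gives a selection, with pseudo-response regulator 3, CONSTANS-like 9 and the B-box genes added after values were seen. The search for nearest genes was run on shuffled differences with planted near copies of targets set mostly far from the real differences. Recovery was therefore close to certain. That run checks the code only and does not show what a given distance means.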

Additional observations from a re-analysis of the deposited data

How the results depend on the processing

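Requiring 4-fold in place of 2-fold, members changed went to 2 for E. globulus at 10 °C (6 at 2-fold), 1 at 30 °C (6), 0 for 30 against 10 °C (4) and 3 at 10 °C with elevated CO2 (5). In E. grandis they went to 0 at 10 °C (1), 0 for 30 against 10 °C (1) and 0 at 10 °C with elevated CO2 (3). The wider list went to 5, 2, 2, 0, 4 and 10 in the 6 E. globulus comparisons (10 °C, 30 °C, 30 against 10 °C, 20 °C, 10 °C and 30 °C, the last 3 with elevated CO2; 15, 10, 14, 1, 17 and 20 at 2-fold). In E. grandis it went to 0 at 10 °C and for 30 against 10 °C (1 each), 0 at 10 °C with elevated CO2 (7) and 7 at 30 °C with elevated CO2 (12). Without light-signalling genes the wider list held 8, 8, 0, 8 and 13 changed genes for 10 °C, 30 against 10 °C, and 20, 10 and 30 °C with elevated CO2 in E. globulus, and 4 at 10 °C with elevated CO2 in E. grandis. That setting still includes the members and the 6 cytokinin response regulator genes of another family. Without other protein families the wider list held 0 at 20 °C with elevated CO2.

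Centring on the median difference of all genes with both values turned FKF1 in E. grandis at 10 °C with elevated CO2 to 0.24 from -1.35, and left 0 members changed in E. grandis at 10 °C and for 30 against 10 °C in ambient CO2. Of 50 member differences, 45 kept their side of 2-fold. Signs turned in 5, and 4 of these were under 2-fold as deposited. The medians ran from -1.60 to 1.34 over the comparisons, and among the 9 listed members of E. globulus at 30 °C with elevated CO2 the split became 3 higher and 5 lower, as Eucgr.K02480 went to 0.81. In E. grandis it became 2 higher and 3 lower at 30 °C with elevated CO2, and 2 higher and 0 lower at 10 °C with elevated CO2. Those medians come from genes chosen for changing, so centring is no estimate of scale. Keeping 1 member per description moved no count by over 1.5 times in the 11 comparisons; this and the list without other families were chosen after seeing the data. By Pearson correlation of levels, at most 1 of the 2 nearest genes stayed the same for each member.

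No paired analysis was possible because the deposited columns hold 1 value per group; leaving out replicates was not run for the same reason. Without values per sample, no difference here can be set against the spread between plants.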

Other observations

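B-box genes encode zinc-finger proteins of the family that includes CONSTANS, and several act in light signalling in Arabidopsis. This list of 12 was added after descriptions and values had been seen, so its counts are a description. At 30 °C with elevated CO2 in E. globulus 8 were listed, 6 higher and 2 lower, with a median difference of 2.59 against 1.34 over all listed genes. There 29.9% of all listed genes were called higher and 16.2% lower. All genes listed there were at least 2-fold apart, so each median mainly follows the larger direction. B-box 32 (Eucgr.F04023) was 10.35 at 30 °C with elevated CO2, against 5.66 in the control, 25.8-fold higher. A B-box type zinc finger gene (Eucgr.K00864) was 11.73 against 7.07, 25.3-fold higher. In ambient CO2 B-box 32 was 7.23 at 10 °C and 8.44 at 30 °C, so all 4 groups at 10 and 30 °C stood above the control, as they did for 4 further genes of the list, of which 1 (Eucgr.F01063) was under 2-fold at 10 °C in ambient CO2.

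Other B-box genes were lower than the control in E. globulus, some described with a CCT domain, the domain that CONSTANS carries, and some without. Of the genes with no CCT domain in their description, Eucgr.A00097 and Eucgr.B02861 were lower at 10 °C, by -1.10 and -1.07 with elevated CO2 and by -1.37 and -1.02 in ambient CO2. The 4 genes described with a CCT domain differed among themselves. Eucgr.K01387 was 8.62 at 30 °C and 9.55 at 10 °C with elevated CO2, against 10.79 in the control, 4.48-fold and 2.36-fold lower. Eucgr.H03381 was 5.47-fold lower in E. globulus and 3.60-fold lower in E. grandis at 30 °C with elevated CO2. Eucgr.G02322 was 3.21-fold lower at 10 °C in ambient CO2 and under 2-fold at 30 °C. Eucgr.B00721 was under 2-fold at 10 and 30 °C in ambient CO2 in E. globulus and 2.88-fold higher in E. grandis at 30 °C with elevated CO2. At 10 °C in E. globulus 10 of the 12 genes were listed, 5 higher and 5 lower in elevated CO2, and 4 higher and 4 lower in ambient CO2. Of all listed genes 15.8% were called higher and 12.7% lower there in elevated CO2, and 17.1% and 14.4% in ambient CO2.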
